A study of Mus musculus with 4 samples.

Results

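The genes of the mitochondrial ribosomal proteins are described here in thymocytes of mice with floxed Chaf1b, with or without a Cre transgene. Chaf1b encodes a subunit of chromatin assembly factor 1, the histone chaperone that loads new histones behind the replication fork. Members were all protein-coding genes of the count table whose symbol begins with Mrpl or Mrps followed by a digit. There were 78 of them among the table's 56239 genes, 49 named for the large and 29 for the small subunit. CD4+CD8+ double-positive (DP) cells were sorted from the thymus of C57BL/6 mice, and their polyadenylated RNA was sequenced without strand. The KO libraries (n = 2) came from Cd4-cre;CHAF1bfloxp/floxp mice, in which Cre recombinase is under Cd4 control, and the WT libraries (n = 2) from CHAF1bfloxp/floxp mice with no Cre. Both groups thus carry floxed Chaf1b alleles, and the Cre transgene is present in the KO group alone, so its own effect cannot be told apart from the loss of Chaf1b. The labels give neither the age of the mice nor how many of them made up a library. A p-value here thus sets the difference between KO and WT against the spread between these libraries only. That spread includes a difference in sex between the replicates of each group. No treatment is given.

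The mitochondrial ribosome translates the few proteins encoded by mitochondrial DNA, all of them parts of the respiratory chain and ATP synthase. Its rRNAs are transcribed inside the organelle, whereas its proteins are encoded by nuclear genes, made in the cytosol and imported. Some of these proteins descend from those of the bacterial ribosome, and others were added in the mitochondrial lineage. Symbol and position do not always match: the proteins of Mrps30 and Mrps18a sit in the large subunit, and the Mrps36 product is now known as a subunit of the alpha-ketoglutarate dehydrogenase complex.

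Upstream sequences are shown for members near the ends of the range of differences and for a pair that starts back to back. Mrpl24 and Mrps26 had among the lowest log2 fold changes, and Mrpl52 and Mrpl16 among the highest. Mrps11 and Mrpl46 are a small and a large subunit gene whose RefSeq starts point away from each other. As annotated for counting, these genes overlap at their starts, and the Mrpl46 run shown lies inside the Mrpl46 gene. Each run is the 250 bases before a RefSeq transcript start on GRCm38.p6, read 5′ to 3′ on the gene's strand. Capitals mark exact matches, on either strand, to 1 of 6 searched motifs: CCGGAAG (ETS factors), GCATGCG (NRF1), ATGGCGG (YY1), CCAAT (the NF-Y box), GGGCGG (SP1) and CACGTG (E-box). None of these letter runs contains another.
Mrpl24 (chr3:87919294-87919543, plus strand): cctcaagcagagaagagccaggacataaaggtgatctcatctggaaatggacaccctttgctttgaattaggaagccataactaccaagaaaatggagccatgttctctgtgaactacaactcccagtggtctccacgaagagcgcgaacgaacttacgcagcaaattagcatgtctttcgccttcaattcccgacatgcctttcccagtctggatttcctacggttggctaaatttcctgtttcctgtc
Mrps26 (chr2:130563507-130563756, plus strand): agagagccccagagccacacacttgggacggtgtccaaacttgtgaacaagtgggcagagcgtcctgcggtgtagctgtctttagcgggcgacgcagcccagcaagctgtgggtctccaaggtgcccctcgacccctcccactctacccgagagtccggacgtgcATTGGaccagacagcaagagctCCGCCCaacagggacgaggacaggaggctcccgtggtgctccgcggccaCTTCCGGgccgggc
Mrpl52 (chr14:54426659-54426908, plus strand): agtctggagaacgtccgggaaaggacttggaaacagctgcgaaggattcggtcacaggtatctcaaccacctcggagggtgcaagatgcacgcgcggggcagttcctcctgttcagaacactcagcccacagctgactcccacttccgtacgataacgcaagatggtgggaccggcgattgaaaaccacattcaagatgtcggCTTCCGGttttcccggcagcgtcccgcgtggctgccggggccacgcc
Mrpl16 (chr19:11770165-11770414, plus strand): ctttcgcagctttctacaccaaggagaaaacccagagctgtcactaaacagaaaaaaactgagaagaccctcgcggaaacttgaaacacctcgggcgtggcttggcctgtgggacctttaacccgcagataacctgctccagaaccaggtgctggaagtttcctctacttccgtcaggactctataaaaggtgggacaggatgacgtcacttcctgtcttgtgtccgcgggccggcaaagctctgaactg
Mrps11 (chr7:78782881-78783130, plus strand): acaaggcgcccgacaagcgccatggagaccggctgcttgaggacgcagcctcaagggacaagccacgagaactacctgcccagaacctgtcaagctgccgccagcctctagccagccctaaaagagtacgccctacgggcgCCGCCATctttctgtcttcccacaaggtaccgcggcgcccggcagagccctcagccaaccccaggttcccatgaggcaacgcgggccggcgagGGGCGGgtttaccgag
Mrpl46 (chr7:78783090-78783339, minus strand): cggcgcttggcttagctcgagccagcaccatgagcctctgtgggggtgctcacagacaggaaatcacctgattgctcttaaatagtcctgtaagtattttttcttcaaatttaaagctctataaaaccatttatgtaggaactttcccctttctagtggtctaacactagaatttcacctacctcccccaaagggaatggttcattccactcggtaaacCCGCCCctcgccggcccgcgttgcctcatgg

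The windows differed in which letters they held. Mrps26 had a CCAAT match at -85, a GGGCGG match at -63 and a CCGGAAG match at -14, counted from the transcript start and all on the opposite strand. The Mrpl52 window had a CCGGAAG match at -47, also on the opposite strand, and those of Mrpl24 and Mrpl16 had none of the 6 motifs. The Mrps11 and Mrpl46 windows share 41 bases on opposite strands, and the GGGCGG match of both (at -16 from Mrps11 and at -31 from Mrpl46) is the same site. These matches describe letters in a window and not binding.

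Over windows of 300 bases (250 before to 50 after each start), 69 of the 78 members matched the table of RefSeq windows used here, with 75 windows in all. CCGGAAG was in 26 of the 75 member windows (34.7%), against 2394 of the 20150 windows of all protein-coding genes (11.9%). It was in 15 of 48 windows of large subunit genes (31.3%) and in 11 of 27 windows of small subunit genes (40.7%). ATGGCGG was in 17.3% of the member windows (14.6% of large and 22.2% of small subunit windows) and 5.38% of all windows. GCATGCG was in 10.7% of the member windows and 4.57% of all windows. Its matches were in 7 of 48 large (14.6%) and 1 of 27 small subunit windows (3.70%). With both subunits pooled, the shares lay closer together for CCAAT (40.0% of member windows and 37.8% of all windows), GGGCGG (52.0% and 47.8%) and CACGTG (9.33% and 8.03%). In large and small subunit windows these were 35.4% and 48.1% for CCAAT, 43.8% and 66.7% for GGGCGG, and 12.5% and 3.70% for CACGTG. Mrps34, Mrpl13, Mrps28, Mrpl4, Mrps35, Mrpl54, Mrpl15, Mrpl38 and Mrpl19 were not matched in that table.

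The libraries held 24688653 and 21068760 counts in KO replicates 1 and 2, and 23215539 and 27369874 in WT replicates 1 and 2. Chaf1b stood at 12.2 and 14.8 CPM (counts scaled to library size, corrected by TMM) in the KO libraries, against 27.9 and 31.7 CPM in the WT libraries. The log2 fold change was -1.14 ± 0.16 (SE, edgeR adjusted p = 0.267, 0.0172 with sex as a term, and 0.000181 by DESeq2). Chaf1b transcript was thus lower but still present in the KO libraries, and these counts do not show how much protein was left. Chromosomal sex followed the replicate number in both genotypes: Xist had 47301 and 12 counts in KO replicates 1 and 2, against 47368 and 8 in WT replicates 1 and 2. Differences are therefore also given within the female pair (replicate 1) and the male pair (replicate 2). A fit with sex as a term is a fit with the replicate number, and sex cannot be told apart from anything else that follows that number. KO replicates differed more from each other than WT replicates did (chi-square per degree of freedom of 51.2 and 11.3). All 10 DP markers were detected, with summed levels of 16316 to 19768 CPM in KO libraries and 15632 to 15909 CPM in WT libraries. Markers of B cells, macrophages or granulocytes, dendritic cells, erythroid cells and epithelium or stroma summed to at most 9.96 CPM per list and library, with S100a8 at 0 counts in every library. The 4 NK or gamma-delta markers summed to 90.1 to 97.3 CPM in KO and 76.1 to 88.4 CPM in WT libraries, nearly all of it Trdc, with Ncr1 at 0 counts. The 5 hepatocyte markers summed to 335 and 4.81 CPM in KO replicates 1 and 2, against 322 and 68.9 CPM in WT replicates 1 and 2. The part of these levels in the results was not tested. In bulk samples, fewer cells of a type and less RNA per cell cannot be told apart.

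Counts of the members were near each other in the KO and WT libraries. Large subunit genes took 0.142% and 0.165% of all counts in KO replicates 1 and 2, against 0.162% and 0.167% in WT replicates 1 and 2. Small subunit genes took 0.0670% and 0.0813% in the KO libraries, against 0.0801% and 0.0844% in the WT libraries. For both subunits KO replicate 1 was the lowest library and KO replicate 2 lay between the WT libraries, so the groups overlapped. Counting error was small beside this spread: the exact 95% interval of the large subunit share was 0.141% to 0.144% in KO replicate 1 and 0.163% to 0.167% in KO replicate 2.

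TMM scaling, which corrects for a few abundant genes taking more of one library, narrowed the gap. The 10 most abundant genes made up 5.62% and 4.24% of KO replicates 1 and 2, against 3.62% and 3.72% of WT replicates 1 and 2. Summed normalised counts of the large subunit were 1546 and 1610 CPM in the KO libraries (mean 1578 ± 45.3, SD, n = 2), against 1585 and 1617 CPM in the WT libraries (1601 ± 21.98). Those of the small subunit were 729 and 792 CPM in the KO libraries (761 ± 44.5), against 785 and 815 CPM in the WT libraries (800 ± 21.7). Both differences were within the spread between libraries (exact permutation test, two-sided, p = 0.667 for each, where 2 against 2 cannot go below 0.3333). The KO over WT ratio of the means was 0.986 for the large and 0.951 for the small subunit.

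**Figure D1:**
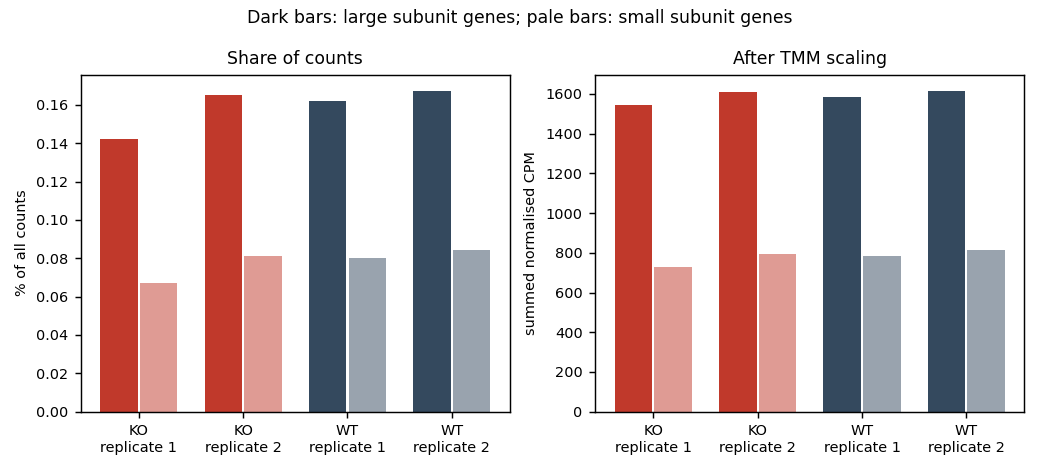
Share of all counts (left, percent) and summed TMM-normalised counts (right, CPM) of the large subunit (dark bars) and small subunit genes (pale bars) in each KO (red) and WT (blue) library; no error bars are drawn because each bar is 1 library. KO replicate 1 has the lowest bars, at 0.142% and 0.0670% of counts, and after scaling the large subunit sums run from 1546 to 1617 CPM.

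The balance between the subunits was close to the same in all libraries. The large over small ratio of summed normalised counts was 2.12 and 2.03 in KO replicates 1 and 2, against 2.02 and 1.98 in WT replicates 1 and 2. Both KO values were above both WT values, narrowly for KO replicate 2 and WT replicate 1, and the exact permutation p of 0.3333 is the smallest that 2 against 2 can give.

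No member passed the test at an adjusted p of 0.05. Of the 77 members tested (48 large, 29 small), edgeR's quasi-likelihood test called 0 higher and 0 lower in KO, where 0.00664% of all 15070 tested genes were called higher and 0% lower. At an unadjusted p under 0.05 there were 5 members (6.49%), against 16.8% of all tested genes. Of these, Mrpl48 was higher in KO (8.14% of all genes were), and Mrpl24, Mrps24, Mrps26 and Mrps11 were lower (8.69% of all). With sex as a term, 0 members were called, against 3.21% of all tested genes, and 7 members had an unadjusted p under 0.05 (9.09%), against 21.4% of all. DESeq2 called 0 members higher, against 1.17% of all tested genes, and 1 lower, Mrpl24 (adjusted p = 0.0495), against 1.89% of all.

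The sizes of the differences were small. Log2 fold changes of the 77 tested members ran from -0.50 (Mrpl24) to 0.49 (Mrpl48) with an SD of 0.21, where those of all tested genes had an SD of 0.52. The median was 0.07 for the large subunit (26 positive, 22 negative) and -0.02 for the small subunit (14 positive, 15 negative), beside -0.003 over all tested genes. When libraries were scaled by their totals alone, the large subunit median was -0.01 and that of all tested genes -0.08. For 56 members (72.7%), 38 of the large and 18 of the small subunit, the 95% interval of the difference lay within 1.5-fold in either direction, against 32.7% of all tested genes. For the other 21 members a difference beyond 1.5-fold lies inside the interval. The members and all tested genes were not matched for level, and counting error widens both spread and intervals where counts are few. The smaller SD and narrower intervals are thus no measure of how stable the members are. The lowest lower bound was -0.80 (Mrpl24) and the highest upper bound 0.85 (Mrpl48).

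**Figure D2:**
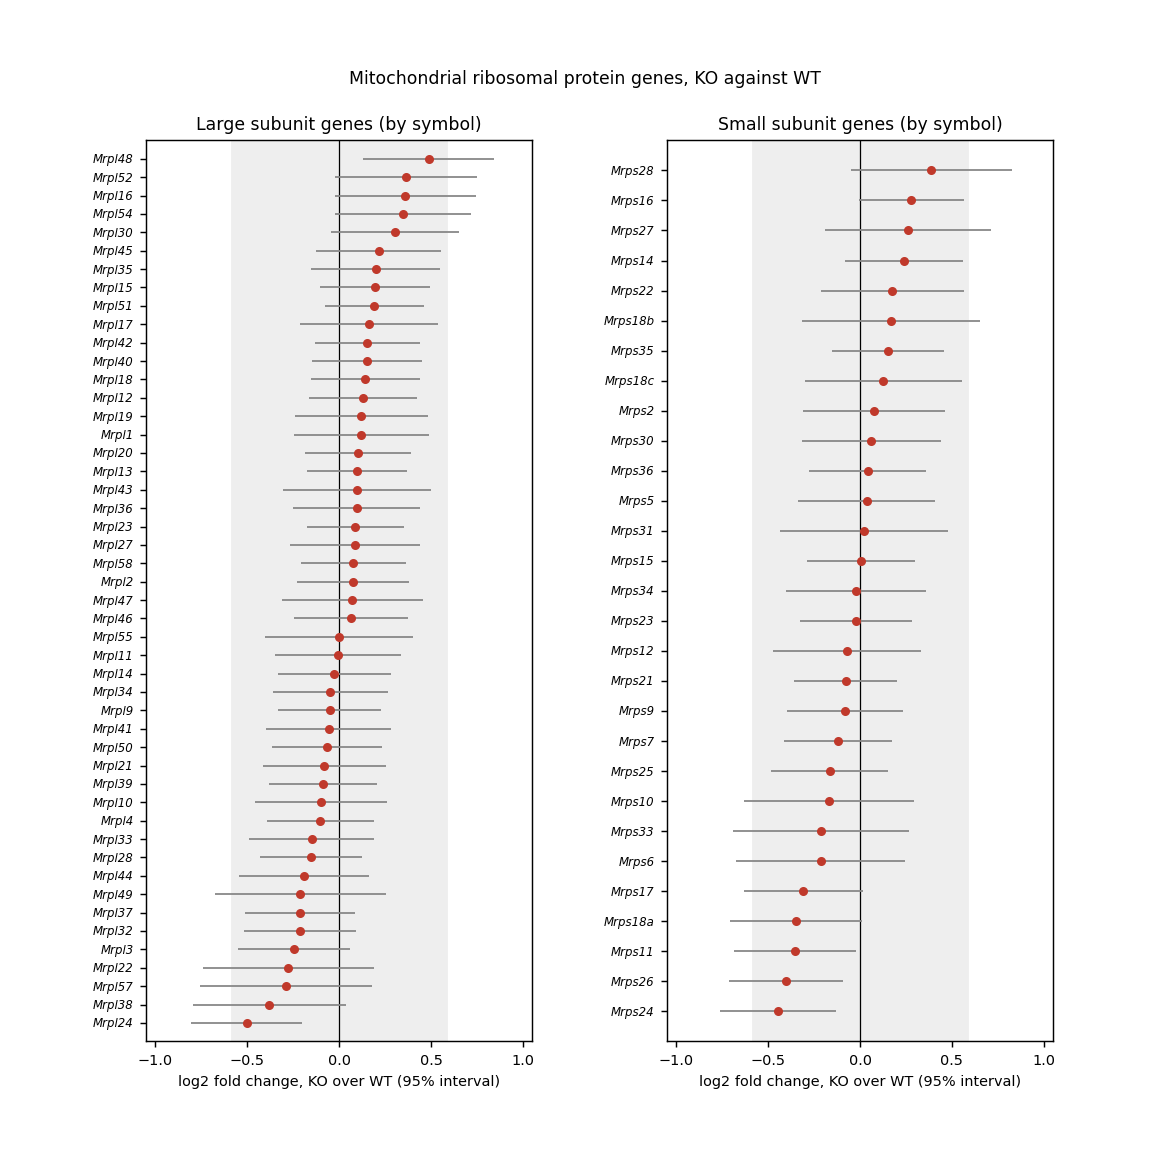
Log2 fold change of KO over WT for each tested member, large subunit genes on the left and small subunit genes on the right, sorted by value; points are edgeR estimates, lines their 95% intervals, and the grey band spans 1.5-fold either way. Estimates run from -0.50 (Mrpl24) to 0.49 (Mrpl48), and 56 of 77 intervals lie inside the band.

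In the order of the libraries, both KO values were above both WT values for 27 members (35.1%), against 27.9% of all tested genes. Both KO values were below both WT values for 16 members (20.8%), against 28.4% of all. The groups did not overlap for 43 members in all (55.8%), against 56.3%, a share near that of all genes. The 27 were 20 large and 7 small subunit genes, and the 16 were 8 of each.

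Mrpl24 (ENSMUSG00000019710, chr3:87919506-87923672 on GRCm38), a homologue of a bacterial large subunit protein, had the lowest log2 fold change of all members. It stood at 78.4 and 91.7 CPM in KO replicates 1 and 2, against 122 and 119 CPM in the WT libraries. Both KO values lay below both WT values, with a difference in each pair (-0.64 female, -0.38 male). The log2 fold change was -0.50 ± 0.12 (SE; edgeR adjusted p = 0.267, 0.0682 with sex as a term). Its exons share 594 of 2255 bases (26.3%) with those of Rrnad1, and fragments over both genes were left out of its count, so its level is uncertain. Mrpl24 was the only member that crossed the threshold under more than 1 alternative, at an edgeR adjusted p of 0.0144 without a filter on low counts, 0.0499 without KO replicate 1 and 0.000234 without KO replicate 2.

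Other large subunit members at the low end did not pass either. Mrpl38, which encodes a protein added in the mitochondrial lineage, stood at 20.4 and 27.3 CPM in the KO libraries, against 31.8 and 30.3 CPM in the WT libraries (log2 fold change -0.38 ± 0.17, edgeR adjusted p = 0.315). Its groups did not overlap, but KO replicate 2 was nearer to the WT libraries than to KO replicate 1. Mrpl57, also mitochondria-specific, stood at 33.6 and 48.8 CPM in the KO libraries, against 48.1 and 52.7 CPM in the WT libraries (-0.29 ± 0.19). Mrpl22, a homologue of a bacterial protein that lines the exit tunnel, stood at 16.1 and 22.3 CPM in the KO libraries, against 24.3 and 22.2 CPM in the WT libraries (-0.28 ± 0.19). In both of these genes KO replicate 1 alone was low and the groups overlapped.

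At the high end of the large subunit, Mrpl48 (ENSMUSG00000030706, chr7:100545751-100608301), a mitochondria-specific protein of the central protuberance, had the highest log2 fold change of all members. It stood at 32.9 and 28.2 CPM in the KO libraries, against 20.4 and 23.2 CPM in the WT libraries, with no overlap between the groups (log2 fold change 0.49 ± 0.15, edgeR adjusted p = 0.267, 0.131 with sex as a term). It shares 708 of its 8152 bases with Rab6a. Mrpl52 and Mrpl54, both mitochondria-specific, and Mrpl16, a homologue of a bacterial large subunit protein, followed. Mrpl52 stood at 36.03 and 28.6 CPM in the KO libraries, against 23.8 and 26.5 CPM in the WT libraries (0.36 ± 0.16, edgeR adjusted p = 0.306). Mrpl16 stood at 14.7 and 13.9 CPM in the KO libraries, against 11.2 and 11.1 CPM in the WT libraries (0.36 ± 0.16, edgeR adjusted p = 0.309). Its pairs were alike (0.39 female, 0.32 male), whereas those of Mrpl52 were not (0.60 female, 0.11 male). Mrpl54 stood at 28.5 and 26.1 CPM in the KO libraries, against 19.3 and 23.5 CPM in the WT libraries (0.35 ± 0.15, edgeR adjusted p = 0.309).

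In the small subunit the 4 lowest members all had both KO values below both WT values, as had 28.4% of all tested genes. They were picked by these same values, so this order adds no evidence. Mrps24 (ENSMUSG00000020477, chr11:5703983-5715680), a homologue of a bacterial protein at the mRNA entry, stood at 22.1 and 25.3 CPM in the KO libraries, against 32.8 and 31.9 CPM in the WT libraries (log2 fold change -0.45 ± 0.13, edgeR adjusted p = 0.267). It shares 226 of 1466 bases with Urgcp. Mrps26 (ENSMUSG00000037740, chr2:130563742-130568695), a mitochondria-specific protein whose upstream window is shown above, stood at 48.9 and 57.8 CPM in the KO libraries, against 70.6 and 70.4 CPM in the WT libraries (-0.40 ± 0.13, edgeR adjusted p = 0.267). The WT libraries were nearly equal, both KO libraries were lower, and only 8 of its 4358 bases are shared with another gene. Mrps18a, whose protein sits in the large subunit, stood at 17.3 and 20.4 CPM in the KO libraries, against 24.6 and 23.4 CPM in the WT libraries (-0.35 ± 0.15, edgeR adjusted p = 0.301).

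Mrps11 and Mrpl46, the back-to-back pair, stood apart from each other. Mrps11, a homologue of a bacterial small subunit protein of the platform, stood at 21.03 and 24.5 CPM in the KO libraries, against 29.7 and 28.5 CPM in the WT libraries (log2 fold change -0.36 ± 0.14, edgeR adjusted p = 0.285). Mrpl46, a mitochondria-specific large subunit gene, stood at 23.6 and 24.9 CPM in the KO libraries, against 22.8 and 23.7 CPM in the WT libraries (0.06 ± 0.13, edgeR adjusted p = 0.813). The Mrps11 groups did not overlap and those of Mrpl46 did. The genes share 173 exonic bases, from which fragments fitting both were left out, and the difference between the genes was not tested. Mrpl46 was chosen for its place beside Mrps11 after its values were seen.

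At the high end of the small subunit all 4 members, again picked by these values, had both KO values above both WT values (27.9% of all tested genes had). Mrps28 (ENSMUSG00000040269, chr3:8802146-8923918), a homologue of a bacterial small subunit protein, stood at 16.3 and 13.6 CPM in the KO libraries, against 10.7 and 12.1 CPM in the WT libraries (log2 fold change 0.39 ± 0.18, edgeR adjusted p = 0.321). Mrps16, a homologue of a bacterial small subunit protein, stood at 34.97 and 34.1 CPM in the KO libraries, against 29.5 and 27.4 CPM in the WT libraries (0.28 ± 0.12, edgeR adjusted p = 0.301). Its difference was larger in the male (0.31) than in the female pair (0.24). Mrps27, a pentatricopeptide repeat protein, stood at 14.2 and 14.1 CPM in the KO libraries, against 10.3 and 13.2 CPM in the WT libraries (0.26 ± 0.18). Mrps14, another bacterial homologue, stood at 37.3 and 32.0 CPM in the KO libraries, against 28.4 and 30.2 CPM in the WT libraries (0.24 ± 0.13). The edgeR adjusted p was 0.480 for Mrps27 and 0.371 for Mrps14.

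**Figure D3:**
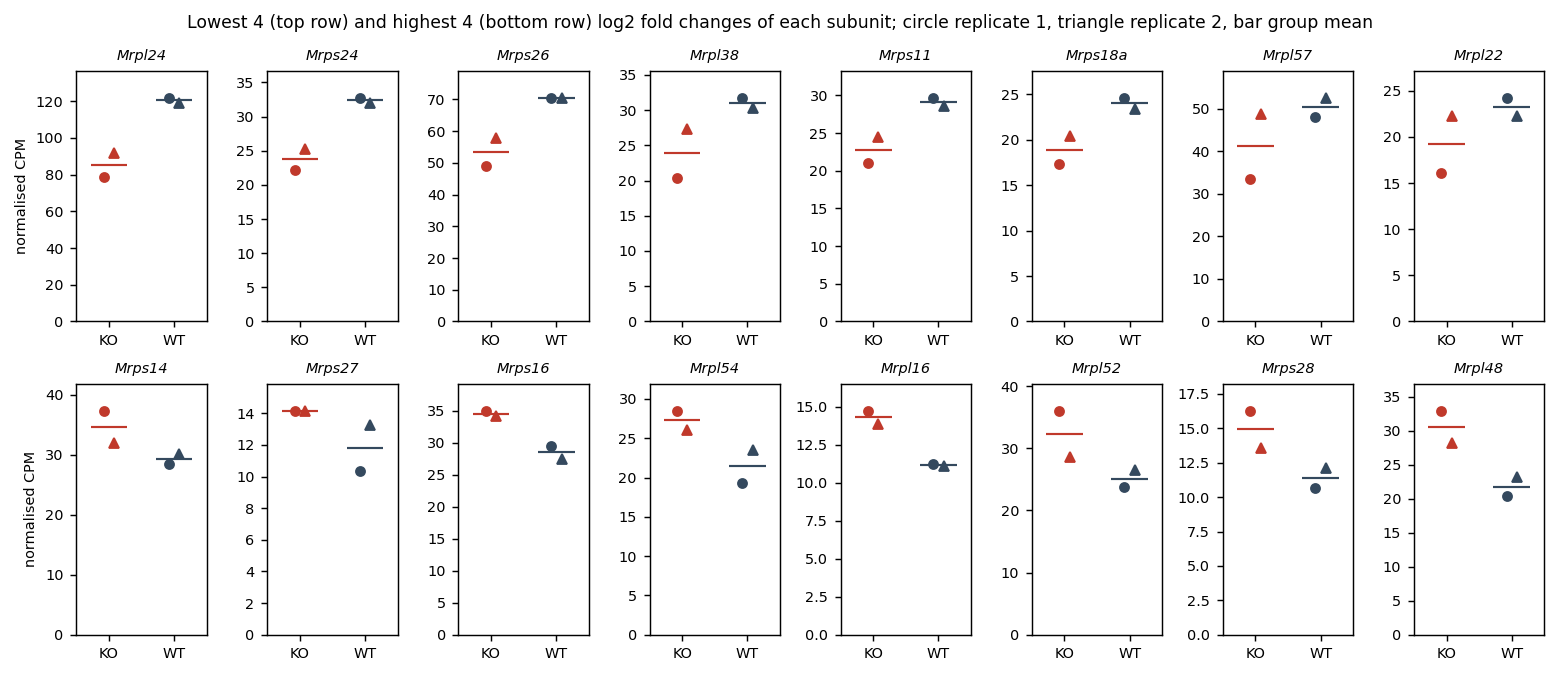
Normalised counts (CPM, axes from 0) of the 4 members with the lowest (top row) and the 4 with the highest (bottom row) log2 fold change in each subunit, in KO (red, left) and WT (blue, right) libraries; circles are replicate 1, triangles replicate 2 and bars group means. The groups do not overlap except for Mrpl57 and Mrpl22, where KO replicate 2 lies among the WT values. The genes were picked by these same values, and the groups do not overlap for 56.3% of all tested genes.

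Members whose protein has an unusual place had small differences apart from Mrps18a. Mrps30, whose protein sits in the large subunit, stood at 18.8 and 16.4 CPM in the KO libraries, against 16.2 and 17.5 CPM in the WT libraries (log2 fold change 0.06 ± 0.15). Mrps18b and Mrps18c are paralogues of Mrps18a, and their proteins are in the small subunit. Mrps18b stood at 7.14 and 8.14 CPM in the KO libraries, against 6.54 and 7.06 CPM in the WT libraries (0.17 ± 0.20), and Mrps18c at 16.1 and 16.01 CPM in the KO libraries, against 13.0 and 16.4 CPM in the WT libraries (0.13 ± 0.17). The edgeR adjusted p was 0.854 for Mrps30, 0.673 for Mrps18b and 0.725 for Mrps18c. Mrps36, described above, had a log2 fold change of 0.04.

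Origin did not separate the members much. The 46 tested bacterial homologues had a median log2 fold change of 0.002 (23 positive, 23 negative) and the 30 tested mitochondria-specific members one of 0.04 (16 positive, 14 negative). Within the large subunit the medians were 0.07 for both classes, and within the small subunit -0.07 for homologues and 0.001 for specific members. The 45 members that share no exonic base with another gene had a median of 0.02 and values from -0.38 to 0.39.

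Levels per length (TPM, computed from counts per base, as the mean of the 4 libraries) differed widely between members. The highest of the large subunit were Mrpl34 at 223, Mrpl24 at 166 and Mrpl18 at 119, and of the small subunit Mrps21 at 187, Mrps23 at 120 and Mrps12 at 70.0, all but Mrps23 homologues of bacterial proteins. Mrps12 is the counterpart of the decoding-centre protein in bacteria. The lowest tested members were Mrpl17 at 6.76 and Mrpl47 at 10.01 in the large subunit, and Mrps10 at 7.78, Mrps30 at 9.30 and Mrps35 at 9.62 in the small subunit. Length here is the union of all annotated exons, which is 7605 bases for Mrpl17 and 607 for Mrpl34, so long rare exons lower the value. Of these members Mrpl24, with a log2 fold change of -0.50, and Mrps30 are described above. Between genotypes the others differed little. Log2 fold changes were -0.05 for Mrpl34, 0.14 for Mrpl18, -0.08 for Mrps21, -0.02 for Mrps23 and -0.07 for Mrps12. They were 0.16 for Mrpl17, 0.07 for Mrpl47, -0.17 for Mrps10 and 0.15 for Mrps35. None of these others passed the threshold (edgeR adjusted p from 0.534 to 0.938).

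Mrpl53 (chr6:83109040-83109939), a mitochondria-specific large subunit gene, was the only member not tested. It had 0 counts in every KO and WT library, where 3 counts, the most that a count of 0 allows, are 0.106 to 0.139 CPM. Its exons hold 790 bases, and their overlaps with exons of Gm42688 and of Ccdc142os add up to 710. A base under both genes enters that sum for each, so the share of the exons covered is not known. Fragments over more than 1 gene were not counted, so the 0 is no measure of its expression.

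The differences were larger in the female pair, among the members as over all tested genes. For 59 of 77 members the absolute difference was larger between the replicate 1 libraries. The SD over members was 0.31 for females and 0.15 for males, where over all tested genes, not matched for level, it was 0.68 and 0.52. The female difference was the larger for 11048 of all 15070 tested genes. Of the 77 members 31 were higher in KO in both pairs, 25 lower in both, and 21 split, where the counts over all 15070 tested genes were 5345, 5533 and 4187. Medians of the large subunit were 0.05 for females and 0.04 for males, and those of the small subunit -0.10 for females and 0.01 for males. Without KO replicate 2, so that KO replicate 1 stood alone against both WT libraries and was assumed to vary like them, edgeR called 6 members higher and 13 lower (24.7% of the members, against 32.3% of all tested genes). Without KO replicate 1 it called 0 higher and 1 lower, Mrpl24, against 3.31% of all tested genes.

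**Figure D4:**
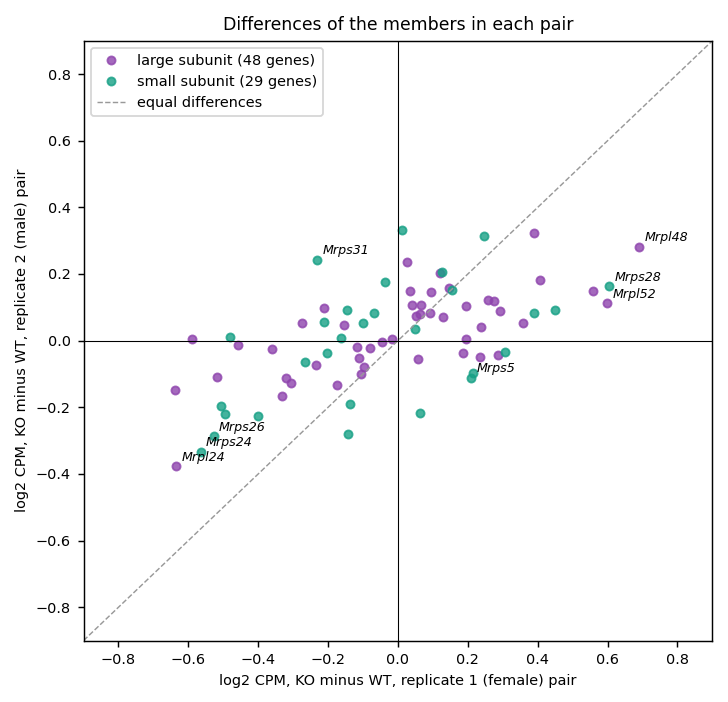
Difference in log2 CPM, KO minus WT, of each tested member in the female pair (x axis, replicate 1) and the male pair (y axis, replicate 2); purple points are large subunit genes, green points small subunit genes, and the dashed line marks equal differences. Points spread more along the x axis (SD 0.31) than along the y axis (SD 0.15), and Mrps31 and Mrps5 are labelled as points of opposite sign in the pairs.

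Many members start beside another gene. Of 78 members 25 (32.1%) have their start within 500 bases of a protein-coding gene's start on the other strand, against 1958 of 22028 protein-coding genes (8.89%). Some members and partners had different signs. Mrpl30 had a log2 fold change of 0.30 and its partner Mitd1 one of -0.50, Mrpl54 had 0.35 and Apba3 -0.42, and Mrpl49 had -0.21 and Fau, which encodes a cytosolic ribosomal protein, 0.58. Mrpl40 starts 175 bases from Hira, which encodes another histone chaperone, and the values were 0.15 and 0.09. No difference between partners was tested, and these examples were chosen after their values were seen.

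The other genes of the pathway were set beside the members by the same fits, in which 0 genes of each list passed edgeR's test without a sex term. The 5 mitoribosome proteins named otherwise, Dap3, Chchd1, Aurkaip1, Ptcd3 and Gadd45gip1, had log2 fold changes of -0.15 to -0.03 with 0 calls by any fit and 0 at an unadjusted p under 0.05. Of 28 tested mitoribosome assembly factors (median -0.08), 6 had an unadjusted p under 0.05 (16.8% of all tested genes did). DESeq2 called 1 lower (1.89% of all), and 2 fell with sex as a term against 2.20% of all tested genes called lower. Without KO replicate 1 the median was 0.04 and without KO replicate 2 it was -0.35. The genes that fell were Mterf3, which binds mitochondrial DNA and aids large subunit assembly, and Rmnd1. Mterf3 stood at 26.1 and 40.9 CPM in the KO libraries, against 58.7 and 54.9 CPM in the WT libraries (-0.79 with sex as a term, edgeR adjusted p = 0.0389). Rmnd1 stood at 12.6 and 23.0 CPM in the KO libraries, against 28.9 and 31.3 CPM in the WT libraries (-0.81 with sex as a term, edgeR adjusted p = 0.0476). In both genes the groups did not overlap and KO replicate 1 was the lowest library. Neither passed with sex as a term when libraries were scaled by their totals (edgeR adjusted p = 0.066 for Mterf3 and 0.0758 for Rmnd1).

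Among 25 tested mitochondrial transcription and RNA factors (median -0.10, 3 with an unadjusted p under 0.05), 3 fell and 0 rose with sex as a term (2.20% and 1.01% of all tested genes did), and DESeq2 called 2 lower (1.89% of all). The 3 were Fastk, a mitochondrial RNA-binding protein (28.8 and 60.4 CPM in KO, against 87.6 and 88.3 CPM in WT; -1.07, edgeR adjusted p = 0.0274), Pnpt1, the mitochondrial polynucleotide phosphorylase (22.004 and 33.0 CPM in KO, against 48.6 and 44.9 CPM in WT; -0.79, edgeR adjusted p = 0.0393), and Ssbp1, the single-stranded DNA-binding protein of mitochondria (26.0 and 36.6 CPM in KO, against 48.5 and 50.8 CPM in WT; -0.68, edgeR adjusted p = 0.0417). In all 3 the groups did not overlap. With sex as a term and scaling by library totals Fastk alone still passed (edgeR adjusted p = 0.0491, against 0.067 for Pnpt1 and 0.067 for Ssbp1). No gene passed among the 14 tested translation factors (median -0.03, 1 with an unadjusted p under 0.05) or the 17 mitochondrial tRNA synthetases (median -0.09, 2 with an unadjusted p under 0.05), with or without sex as a term or by DESeq2.

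Values of the respiratory chain and of mitochondrially encoded transcripts lay above those of the members. Of 74 tested nuclear-encoded respiratory chain and ATP synthase subunits 65 had a positive log2 fold change, as had 7500 of all 15070 tested genes. The median of the list was 0.19, and 0.10 when scaled by library totals, where that of all tested genes was -0.08. In the list 15 genes had an unadjusted p under 0.05 (16.8% of all tested genes did). At a share near that of all genes (1.01% and 1.17%), 1 rose with sex as a term and by DESeq2. This was Ndufa13, a complex I subunit, at 105 and 84.3 CPM in the KO libraries, against 62.4 and 61.7 CPM in the WT libraries (0.60 with sex as a term, edgeR adjusted p = 0.0425, and 0.0912 when also scaled by library totals). The rRNA of the small mitoribosomal subunit, mt-Rnr1, stood at 1567 and 499 CPM in KO replicates 1 and 2, against 387 and 339 CPM in the WT libraries (log2 fold change 1.51 ± 0.50, edgeR adjusted p = 0.267, 0.0411 with sex as a term). That of the large subunit, mt-Rnr2, stood at 2322 and 753 CPM in the KO libraries, against 583 and 503 CPM in the WT libraries (1.502 ± 0.49, edgeR adjusted p = 0.267, 0.0425 with sex as a term). In both the groups did not overlap and KO replicate 1 was far above the other libraries, and since RNA was selected by poly(A), these counts do not measure total rRNA. With sex as a term and scaling by library totals neither passed (edgeR adjusted p = 0.0517 for mt-Rnr1 and 0.05002 for mt-Rnr2). The 13 proteins encoded by mitochondrial DNA had a median of 1.25, all positive, with 12 at an unadjusted p under 0.05. DESeq2 called 10 higher, against 1.17% of all tested genes. With sex as a term 6 were called higher, against 1.01% of all tested genes, and 1 with sex as a term and scaling by library totals. Their median was 0.63 without KO replicate 1 and 1.68 without KO replicate 2. The members thus stood near 0 beside transcripts of the organelle that were higher in both pairs.

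Genes of the cytosolic ribosome are given for comparison. The 79 tested cytosolic ribosomal protein genes had a median log2 fold change of 0.63, beside 0.02 for the members, and 75 of them were positive. Of these genes 66 had an unadjusted p under 0.05 (16.8% of all tested genes did), and DESeq2 called 34 higher and 0 lower (1.17% and 1.89% of all). With sex as a term 7 rose and 1 fell (1.01% and 2.20% of all), and 2 and 0 when also scaled by library totals. Without KO replicate 1 their median was 0.32, and without KO replicate 2 it was 0.90. Rps20 stood at 588 and 311 CPM in the KO libraries, against 221 and 235 CPM in the WT libraries (0.91 with sex as a term, edgeR adjusted p = 0.0496), and Rps28 at 287 and 176 CPM in the KO libraries, against 127 and 121 CPM in the WT libraries (0.86, edgeR adjusted p = 0.0309). Rps10 fell, at 3.13 and 9.49 CPM in the KO libraries, against 14.1 and 15.2 CPM in the WT libraries (-1.37 with sex as a term, edgeR adjusted p = 0.0379). Scaled by library totals, Rps20 and Rps10 did not pass with sex as a term (edgeR adjusted p = 0.0648 and 0.0639). Cytosolic ribosomal proteins also have many processed copies in the genome, whose shared reads were not counted. The difference between the lists was not tested.

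**Figure D5:**
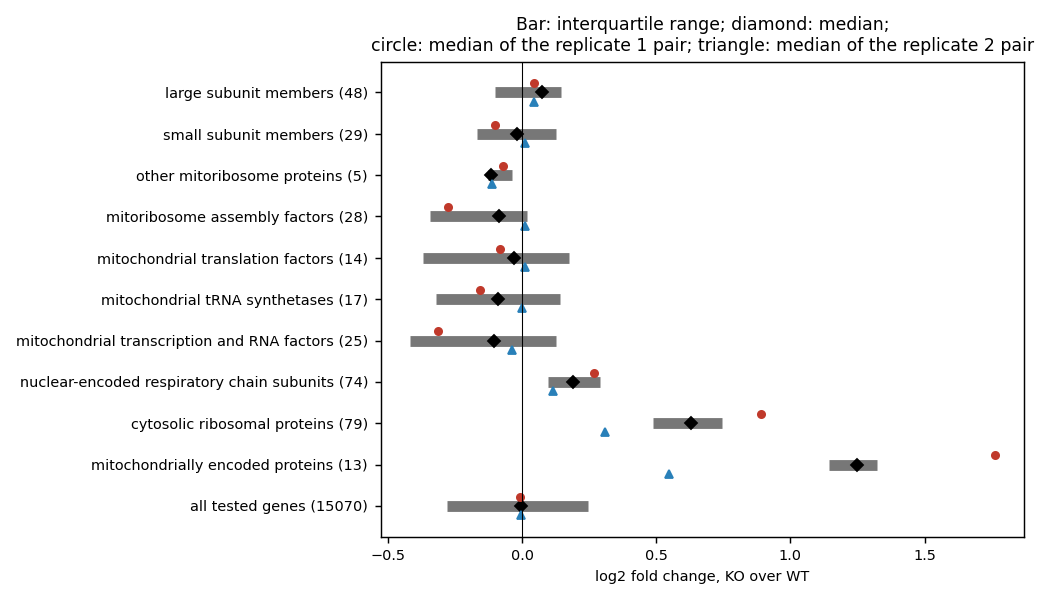
Log2 fold change of KO over WT for the members and related gene lists (number of tested genes in brackets); grey bars span the interquartile range, diamonds are medians, circles the median of the female pair and triangles the median of the male pair. Member medians lie at 0.07 and -0.02, cytosolic ribosomal proteins at 0.63 and mitochondrially encoded proteins at 1.25.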

How the data were processed

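The deposited file is 1 table of raw fragment counts per gene for the 4 libraries, counted with featureCounts 1.6.3 (per the file headers). The submitters' processing notes name featureCounts 1.6.4, HISAT2, Trim Galore 0.5.0, FastQC, DESeq2 and GRCm38. For HISAT2, FastQC and DESeq2 the version is not given in the sources used here. Per the file headers, paired fragments were counted over exons of Ensembl release 98 without strand, with no flag to count fragments that map repeatedly or touch more than 1 gene. Counts of genes with shared exons or near-identical copies are thus uncertain, as are those of genes with an antisense partner, which this counting cannot separate. A column of gene length in bases, also deposited, gave the levels per length.

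Symbols and biotypes came from GENCODE M21, an earlier release, by gene ID. Of 56239 IDs 55240 matched (98.2%), and the others held at most 0.00330% of a library's counts. Upstream sequences are RefSeq's on GRCm38.p6. The members and lists, and the tests, were chosen with earlier results of these data known.

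Counts were analysed in R 4.3.3. Genes passing filterByExpr (15070, with at least 99.9% of each library's counts) were scaled by TMM and tested with edgeR 4.0.16 (quasi-likelihood, 2 residual degrees of freedom), with Benjamini-Hochberg adjustment over all of them and a threshold of 0.05. Alternatives were a fit with the replicate number, which here is sex, as a term (1 residual degree of freedom), DESeq2 1.42.0, other scalings, no filter, and leaving out each library. DESeq2 adjusted p-values given as missing were not counted as calls. Pair differences are of log2 CPM (prior count 2). The edgeR procedure was tested on simulated data. Intervals for shares are exact (Clopper-Pearson, 95%). They and the floor of 3 counts (0.110 to 0.142 CPM of the unscaled library) cover counting error only, because reads copied by PCR are not separate molecules.

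Members named in the text were, by rule, those past the threshold, the 4 highest and 4 lowest log2 fold changes and the 3 highest and 3 lowest levels per length of each subunit, those whose protein position differs from or shares the symbol, and those with opposite signs in the pairs beyond counting error. For related lists up to 3 genes past the threshold in either edgeR fit were named by size. Others are said to have been chosen after their values were seen, or illustrate a list.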

Additional observations from a re-analysis of the deposited data

Results flagged for a closer look

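Mrps31 and Mrps5, genes of small subunit proteins, had differences of opposite sign in the female and male pairs. Each was beyond counting error, which leaves out any spread between mice. The log2 difference of Mrps31, KO minus WT, was -0.23 between the female libraries and 0.24 between the male ones. It stood at 14.9 CPM in the female and 20.3 CPM in the male KO library, against 17.6 and 17.1 CPM in the female and male WT libraries. That of Mrps5 was 0.21 between the female libraries and -0.11 between the male ones, with 55.7 and 58.0 CPM in the female and male KO libraries, against 48.2 and 62.6 CPM in the WT libraries. Each sex has 1 KO and 1 WT library, so the difference between the pairs was not tested. Sex cannot be told apart here from anything else that follows the replicate number. By sign alone, 4187 of all 15070 tested genes split between the pairs, and 21 of the 77 members did. How many of all genes split beyond counting error was not counted. Libraries of the same group also differed beyond counting error (chi-square per degree of freedom of 51.2 in KO and 11.3 in WT).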

How the results depend on the processing

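The counts of called members (0 higher, 0 lower) did not change with DESeq2's size factors, library totals, the replicate block or the replicate block with library totals. They were 0 higher and 1 lower, Mrpl24, with no filter on low counts and by the DESeq2 test. Leaving out 1 library at a time gave 0 to 6 members higher and 0 to 13 lower, the most without KO replicate 2. The large subunit median (0.07) was -0.0091 with library totals and -0.011 with the replicate block and library totals, which moved the median of all genes to -0.08 and -0.09, and ran from 0.013 to 0.084 with 1 library left out. The small subunit median (-0.02) ran from -0.10 to 0.07 with 1 library left out, so its sign is not settled. The KO minus WT difference in share of counts was -0.0110% for the large and -0.00815% for the small subunit. Scaling, filter and fit do not enter this share, so only leaving out a library could move it. With 1 library left out it ran from -0.0226% to 0.000536% for the large and from -0.0153% to -0.00101% for the small subunit.

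Of 420 values for 42 named genes under these alternatives, 333 kept direction and side of the threshold, 71 crossed it in the same direction, and 16 changed sign, all of them in members with a log2 fold change between -0.17 (Mrps10) and 0.13 (Mrps18c). With library totals Mrpl47 was at -0.0099, Mrps30 at -0.026, Mrps31 at -0.048 and Mrps5 at -0.045, and with the replicate block and library totals they were at -0.012, -0.024, -0.074 and -0.035. With 1 library left out, Mrpl34 ran from -0.18 to 0.072, Mrps30 from -0.037 to 0.15, Mrps12 from -0.25 to 0.093, Mrps23 from -0.15 to 0.094, Mrps31 from -0.22 to 0.23, Mrps18c from -0.032 to 0.31, Mrps5 from -0.14 to 0.24 and Mrps10 from -0.33 to 0.014. The cause was not tested.

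The replicate block called 152 genes higher and 331 lower of 15070 (1 and 0 without it), and 0 members. With library totals as well it called 26 higher and 119 lower. The labels do not say that a number marks shared mice or a shared day. Deviations from the group means of the same-numbered libraries were correlated (r = 0.47 over 15070 genes, which are not independent), and the numbers coincide with sex. A missed threshold does not show equal levels. Tested members had 146 counts or more in each library.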
